A study of Mus musculus with 4 samples.

Results

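Binding of RFX2 was described at the promoters of 6 genes of the transport of lipid-modified proteins into cilia: Arl3, Unc119, Unc119b, Pde6d, Inpp5e and Rabl2. They were chosen by function, by name, from 21938 protein-coding genes of the mouse. A promoter ran from 1000 bp upstream to 500 bp downstream of any annotated transcription start site (TSS). Peaks were found in both replicates at Arl3, Unc119b, Pde6d and Rabl2. No list had a peak at the promoters of Unc119 and Inpp5e, and none of the 6 promoters held a peak of the combined list.

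Proteins that carry a lipid tail cannot travel freely through the cytoplasm to the cilium or flagellum. The carriers UNC119 and UNC119B take up myristoylated proteins, and PDE6D takes up prenylated ones. The small GTPase ARL3, in its GTP-bound form, releases the cargo inside the cilium. INPP5E, a phosphoinositide 5-phosphatase, is a prenylated cargo of PDE6D. RABL2 is a small GTPase at the ciliary base that takes part in the entry of intraflagellar transport (IFT) trains, and male mice with a defective Rabl2 have poorly motile sperm. RFX2 belongs to the Regulatory Factor X proteins, transcription factors that bind the X-box, an inverted repeat found at many ciliary genes.

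RFX2 was immunoprecipitated with an anti-RFX2 antibody from chromatin of decapsulated testis of 2 wild type mice of mixed background (C57BL/6|129/Sv|FVB/N), labelled as 29 to 30 days old, with 1 input for each mouse. The groups were RFX2_WT replicates 1 and 2 and input_WT replicates 1 and 2, and no treated or mutant animals were used. The text of the study instead describes dissociated germ cells of younger animals, and the peak lists do not settle which preparation or age applies. Either one holds cells of several stages, so a peak cannot be assigned to a cell type.

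The replicate 1 list held 39825 peaks, with scores from 2.03 to 475 on a −log10 scale. The replicate 2 list held 21274 peaks, with scores from 2.08 to 266. A further, combined list held 2726 peaks, with a −log10 p from 43.2 to 493 and a fold enrichment over local background from 2.85 to 70.5. The combined list was read as a call on the pooled reads of the same 2 animals, so it is no independent replicate. The study's methods also describe a filter on reproducibility between the replicates (the irreproducible discovery rate, IDR), and the lists do not state whether the combined list passed through it. The number of reproducible peaks given there is close to the length of the combined list, though not the same. Absence from the combined list can therefore mean a weak peak, one that did not pass such a filter, or both, and which applies at a given gene cannot be told apart. Weaker peaks than its lowest are not in it, and the read depth behind the lists is unknown. The inputs entered through the peak calling alone, so no separate input value can be set beside a peak. With 2 animals no spread could be estimated for a single peak, and no test was made. Scores were compared by their ranks within a list. For the replicates, the study's methods describe a relaxed peak call, made as input to the reproducibility filter. The lists do not state whether they come from that call. The study named as targets only genes with a promoter peak among its reproducible peaks. Below, a gene is called bound when its promoter held a listed peak in both replicates. That is a weaker requirement.

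Of the 6 genes, 4 had a promoter peak in replicate 1, where 14% of all protein-coding genes had one. In replicate 2 the same 4 genes had one, against 11.3% of all genes. Both lists together met 4 of the 6, against 9.05% of all genes. The combined list met 0 of the 6, against 5.26% of all genes. Peaks in both replicates without one in the combined list were thus found at 4 of the 6, a class that held 3.86% of all genes. The genes were named with earlier results of these data known, so these counts describe the 6 genes and do not test them.

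**Figure D1:**
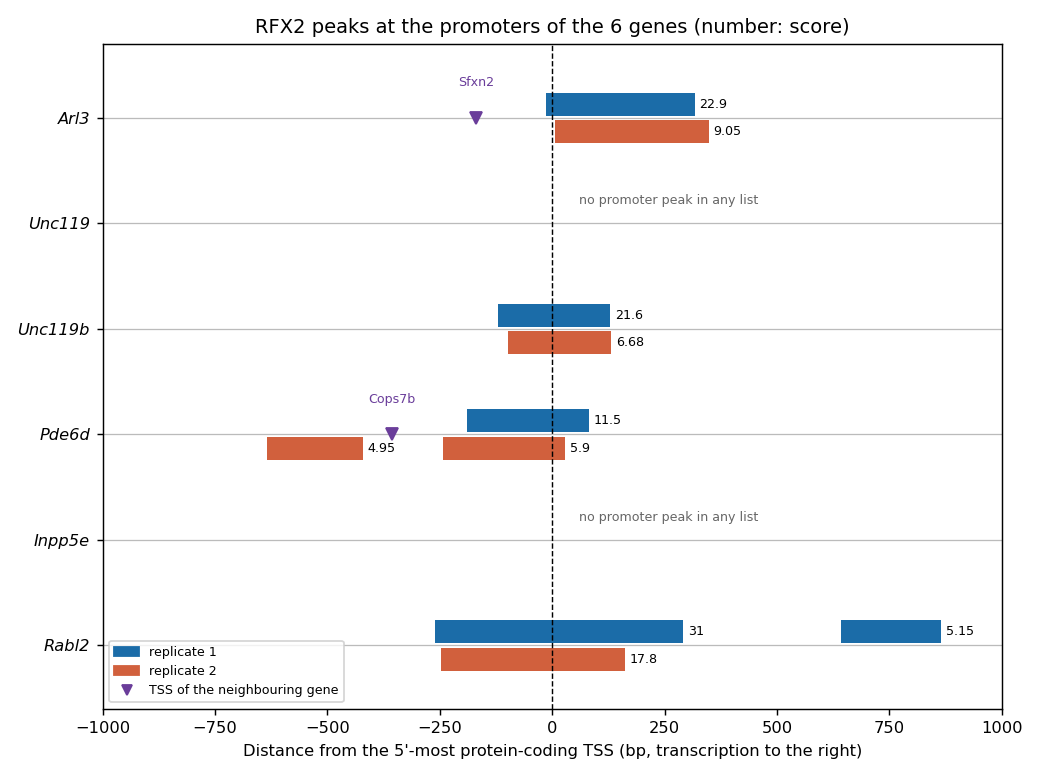
Promoter peaks of the 6 genes, with the distance from the 5′-most protein-coding TSS in bp on the x axis and 1 line per gene. Bars are peaks of replicate 1 (upper) and replicate 2 (lower), the number beside a bar is its score, and triangles mark the TSS of a neighbouring gene. Peaks of both replicates overlap at Arl3, Unc119b, Pde6d and Rabl2, and none is drawn at Unc119 or Inpp5e.

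The GTPase of the release step had peaks in both replicates within a promoter it shares with another gene. Arl3 (ENSMUSG00000025035, GRCm38 chr19:46531096-46573198, minus strand) had a peak at chr19:46572882-46573211 in replicate 1, with a score of 22.9 and rank 3935, in the top 9.88% of the list. In replicate 2 the peak lay at chr19:46572851-46573191, with a score of 9.05 and rank 4305, in the top 20.2%. The overlap of the 2 peaks was 310 bp long, and its centre lay 162 bp downstream of the 5′-most protein-coding TSS and 40 bp downstream of the nearest annotated TSS. The promoter is shared. Sfxn2, which encodes a mitochondrial sideroflexin, starts 167 bp away on the opposite strand, and the Arl3 peaks of both replicates also met its promoter. The lists therefore do not tell which of the pair the binding belongs to. Over 758 other promoter peaks of the same class, found in both replicates and not in the combined list, the centre lay a median of 114.5 bp from the nearest TSS, and 45.9% lay within 100 bp.

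The 2 myristoyl carriers differed. Unc119b (ENSMUSG00000046562, chr5:115122550-115134975, minus strand) had a peak across its TSS in each replicate. The replicate 1 peak, chr5:115134847-115135096, had a score of 21.6 and rank 4172, in the top 10.5%. The replicate 2 peak, chr5:115134845-115135073, had a score of 6.68 and rank 5771, in the top 27.1%. Their overlap was centred 15 bp downstream of the TSS, and the peak met the promoter of no other protein-coding gene. The nearest other protein-coding gene, Acads, starts 15.6 kb away. Unc119 (ENSMUSG00000002058, chr11:78343482-78349164, plus strand) had no peak in its gene body or at any of its 7 TSSs. The nearest peaks met by both replicates lay at −17.7 kb from the TSS, in the promoter of Aldoc, a glycolytic aldolase, with scores of 9.25 in replicate 1 and 6.03 in replicate 2. A peak of replicate 2 alone lay at −16.4 kb, with a score of 4.14. The difference between Unc119b and Unc119 rests on presence and absence in both lists and was not tested.

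The upstream part of the Unc119b peak, chr5:115134976-115135073, shows the composition of this promoter, 79.6% G+C over 98 bases, printed 5′ to 3′ on the minus strand of GRCm38. In this and the stretches that follow, capitals mark a match with at most 1 mismatch to GTTGCCA, the first 7 bases or arm of the X-box word described further on, or to its reverse complement TGGCAAC. The stretch at Unc119b holds none.

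Unc119b: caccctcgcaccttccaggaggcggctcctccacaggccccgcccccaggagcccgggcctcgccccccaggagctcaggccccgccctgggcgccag

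The prenyl carrier Pde6d and its cargo Inpp5e also differed. Pde6d (ENSMUSG00000026239, chr1:86542994-86582629, minus strand) had the weakest peaks of the 4 bound genes. The replicate 1 peak, chr1:86582467-86582736, had a score of 11.5 and rank 7155, in the top 18.0%. The replicate 2 peak, chr1:86582520-86582789, had a score of 5.9 and rank 8043, in the top 37.8%. The overlap was centred 1 bp from the nearest annotated TSS and at −81 bp from the 5′-most protein-coding one. A second replicate 2 peak within the promoter, chr1:86582969-86583182, scored 4.95 and had no partner in replicate 1. It lay 137 bp downstream of a TSS of Cops7b, which encodes a subunit of the COP9 signalosome. Cops7b starts on the opposite strand, 357 bp from the 5′-most protein-coding TSS of Pde6d. The main Pde6d peak also met the promoter of Cops7b in both replicates, so that the binding is again shared by a divergent pair.

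The stretch of the Pde6d peak upstream of every TSS of the gene, chr1:86582630-86582736 on the minus strand, is shown because the replicates overlap there and it lies between the divergent starts. It holds 1 match to the 7-base arm of the X-box, with 1 mismatch, in capitals.

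Pde6d: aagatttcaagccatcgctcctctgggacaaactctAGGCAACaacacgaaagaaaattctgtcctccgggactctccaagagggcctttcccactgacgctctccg

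Inpp5e (ENSMUSG00000026925, chr2:26396249-26409203, minus strand) had no peak at any of its 7 TSSs, in its gene body or between its start and 36.7 kb upstream. The first peak met there was strong in every list and lay at the promoter of Sec16a, a protein of endoplasmic reticulum exit sites. Its combined peak, chr2:26445409-26446299, had a −log10 p of 87.8, rank 1243, a fold enrichment of 10.2 and its summit at position 26445912. The same site scored 75.5 in replicate 1 and 40.8 in replicate 2. Sec16a has an annotated TSS 3.85 kb from Inpp5e as well, and no peak lay there.

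Rabl2 (ENSMUSG00000022621, chr15:89582533-89591923, minus strand) had the highest score of the 6 genes in each replicate. The replicate 1 peak, chr15:89591633-89592184, had a score of 31.0 and rank 2961, in the top 7.44%. The replicate 2 peak, chr15:89591762-89592171, had a score of 17.8 and rank 2028, in the top 9.53%. The centre of their overlap lay at −43 bp relative to the TSS, and no other protein-coding gene starts within 23.5 kb. Starts of non-coding genes were not searched. A weak second peak in replicate 1, with a score of 5.15, lay 754 bp downstream of the TSS and had no partner in replicate 2.

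Rabl2 was also the gene with the most peaks around it. A peak at −4.58 kb from the TSS, chr15:89596228-89596778, scored 25.2 in replicate 1 (rank 3614) and 5.86 in replicate 2 (rank 8068, chr15:89596495-89596667). In replicate 1 it thus scored above the Arl3 promoter peak, and in replicate 2 it scored slightly below that of Pde6d (5.9). Farther away, the promoter of Shank3, a synaptic scaffold protein, scored 18.5 and 14.2, and a peak of replicate 2 alone at Acr, which encodes the sperm protease acrosin, scored 4.99.

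The part of the Rabl2 peak overlap that lies upstream of the gene, chr15:89591924-89592171 on the minus strand, is given because this gene stood highest in both lists. Capitals mark 2 matches to the 7-base arm of the X-box with 1 mismatch each.

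Rabl2: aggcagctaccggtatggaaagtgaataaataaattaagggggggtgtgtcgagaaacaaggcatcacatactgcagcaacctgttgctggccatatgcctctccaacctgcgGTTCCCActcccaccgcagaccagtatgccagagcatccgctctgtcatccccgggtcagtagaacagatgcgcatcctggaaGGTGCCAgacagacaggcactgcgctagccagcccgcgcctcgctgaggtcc

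The order of the 4 bound genes by score was the same in the replicates: Rabl2, Arl3, Unc119b and Pde6d. Neighbours in that order could not be told apart beyond an error, since each replicate gives 1 value. The scores of Arl3 and Unc119b lay close in replicate 1, at 22.9 and 21.6, and less so in replicate 2, at 9.05 and 6.68. Among the genes with a promoter peak, Rabl2 took place 1149 of 3066 in replicate 1 and 1051 of 2474 in replicate 2. Pde6d took places 1801 and 1825. Counted from the top, the places in replicate 1 ran from 37.5% of these genes at Rabl2 to 58.7% at Pde6d. In replicate 2 Rabl2 lay at 42.5%, and Arl3, Unc119b and Pde6d lay lower, at 61.7, 69.0 and 73.8%. Over the 1777 promoter peaks found in both replicates, the lower quartile of the score was 16.7 in replicate 1 and 9.08 in replicate 2. Pde6d lay below it in both, and Arl3 and Unc119b in replicate 2 alone. None of the 4 was near the top.

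Scores were higher in replicate 1 at all 4 genes. The ratio of the replicate 1 to the replicate 2 score was 1.74 at Rabl2, 1.95 at Pde6d, 2.53 at Arl3 and 3.23 at Unc119b. Over all 1777 promoter peaks found in both replicates the median ratio was 1.95, with quartiles of 1.36 and 2.65. Unc119b thus lay above the upper quartile, and Rabl2, Pde6d and Arl3 between the quartiles. A score on this scale grows with the number of reads, which is unknown here, so the ratios do not compare binding between the animals.

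**Figure D2:**
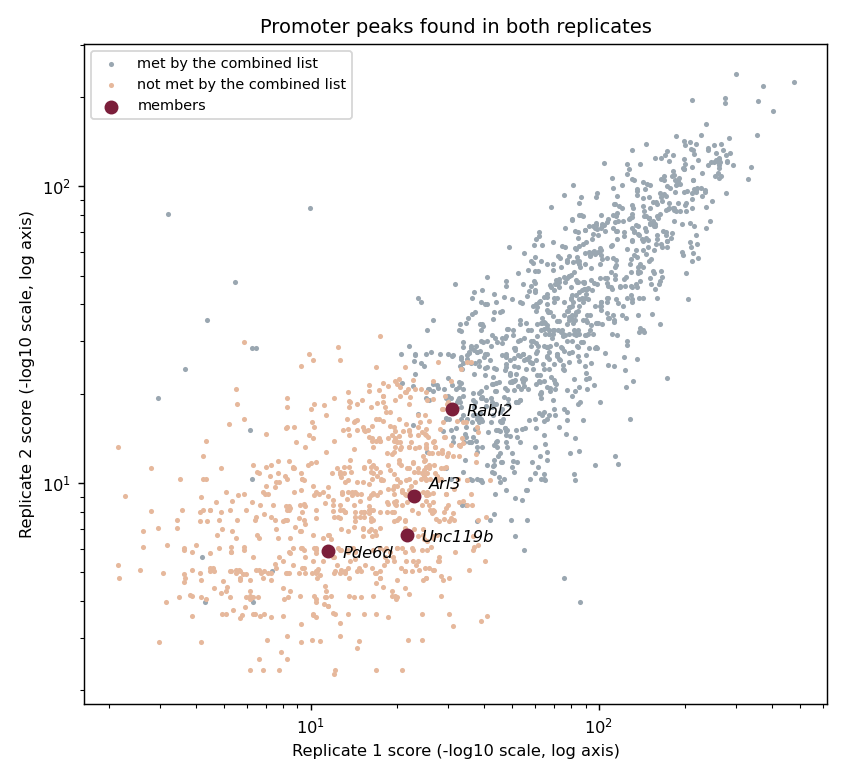
Score in replicate 1 (x axis) against score in replicate 2 (y axis), both on a −log10 scale and drawn on log axes, for the 1777 promoter peaks found in both replicates. Grey points are met by the combined list, orange points are not, and large dark points are the 4 genes, with Rabl2 at the edge of the grey cloud and Pde6d inside the orange one.

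The 4 genes lay at different distances from the range of the combined list. Promoter peaks met by that list, 1015 of the 1777, had a median score of 75.9 in replicate 1 and 35.7 in replicate 2. The other 762 had medians of 15.1 and 8.1. In replicate 1, all of the 4 genes but Pde6d lay above the median of the latter group. In replicate 2, Rabl2 and Arl3 lay above it, and Unc119b and Pde6d below.

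Rabl2 came closest to the combined list. Its scores took places 41 and 60 among the 762 promoter peaks outside that list. Of the 819 promoter peaks that scored at least as high as Rabl2 in both replicates, its own included, 815 (99.5%) were in the combined list. The share was 90.1% for Arl3, 86.3% for Unc119b and 72.0% for Pde6d. These sets take in every stronger peak, so the shares do not describe peaks of similar score. In the other direction, promoter peaks that scored no higher than the gene in either replicate were counted. Of these, 17 of 683 were in the combined list for Rabl2, 4 of 362 for Arl3, 4 of 241 for Unc119b and 4 of 131 for Pde6d. Among peaks as low or lower, absence from the combined list was thus the usual outcome. A promoter peak counted as in that list when a combined peak overlapped its replicate 1 peak. The few low ones counted can therefore include small peaks at the edge of a stronger one.

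For each bound gene, the promoter with the most similar pair of ranks was looked up, by distance in log2 rank over the 2 replicate lists. It was Mipep, a mitochondrial peptidase, for Rabl2. The scores at Mipep were 30.9 and 17.8, practically those of Rabl2, and Mipep was in the combined list. The others were Dpf1, a chromatin remodelling gene, for Arl3 (23.5 and 9.05), B230118H07Rik for Unc119b (21.2 and 7.04) and Oaz2, an antizyme of polyamine synthesis, for Pde6d (11.8 and 5.86). These 3 were not in the combined list.

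**Figure D3:**
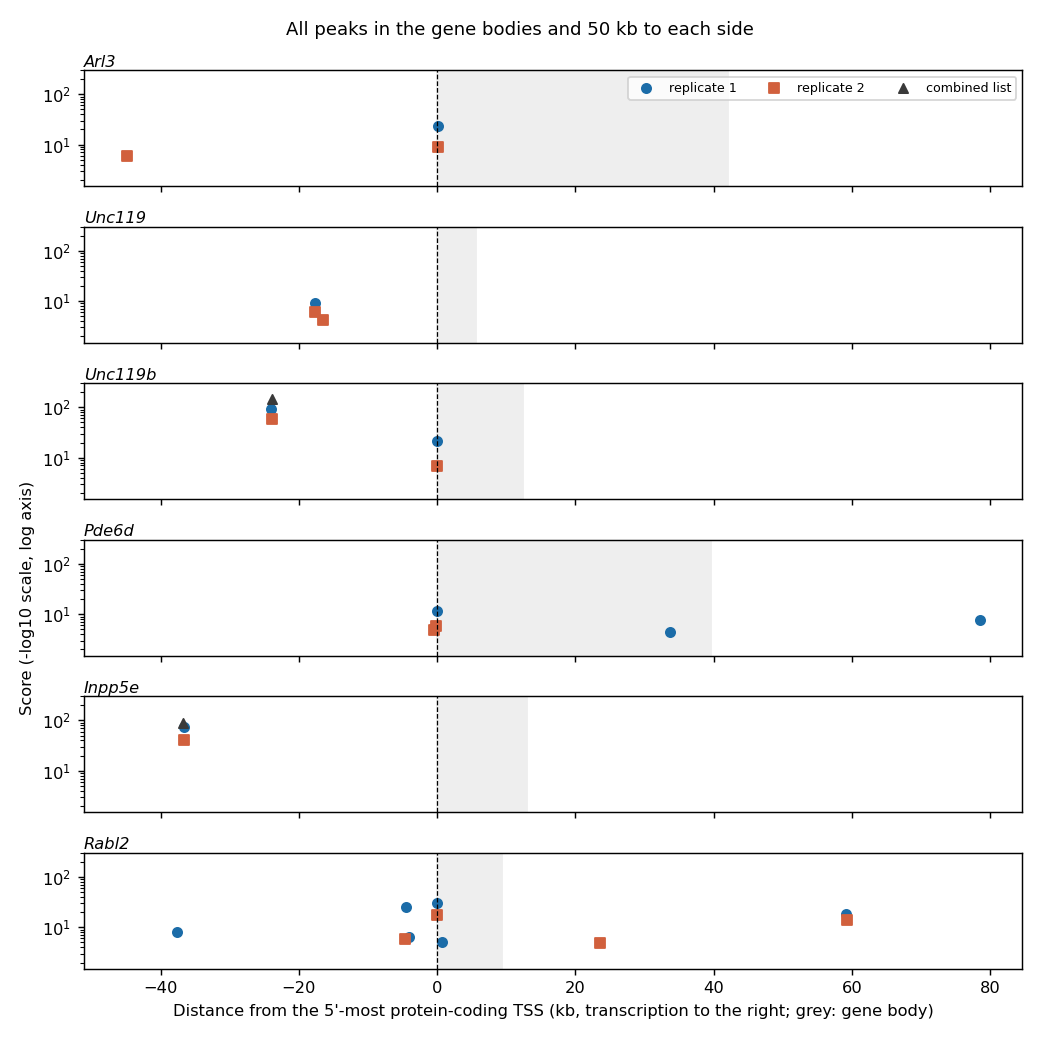
All peaks in the gene body and 50 kb to each side of the 6 genes, with the distance from the 5′-most protein-coding TSS in kb on the x axis and the score, on a −log10 scale and a log axis, on the y axis. Circles are replicate 1, squares replicate 2 and triangles the combined list, and grey marks the gene body. Triangles stand only upstream of Unc119b and Inpp5e.

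Combined peaks lay within 50 kb of the start of 2 of the 6 genes, where 19.6% of 21755 genes had one that near. That of Inpp5e was the Sec16a site above. That of Unc119b, 23.9 kb upstream at chr5:115158511-115159281, was the promoter of Mlec, a lectin of the endoplasmic reticulum, with a −log10 p of 144, rank 545, a fold enrichment of 13.8 and its summit at 115158880. It scored 93.0 and 58.0 in the replicates, far above the 21.6 and 6.68 at Unc119b itself. For the other genes the nearest combined peak was 128 kb away at Arl3 (As3mt), 148 kb at Pde6d (Tex44), 167 kb at Rabl2 (Cpt1b) and 718 kb at Unc119 (Taok1). The gene in brackets is the protein-coding gene with the TSS nearest to that peak. The median over all genes was 217 kb, with quartiles of 69.7 and 573 kb.

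Inside the gene bodies, away from the promoters, a single weak peak of replicate 1 was listed at Pde6d, with a score of 4.47 and no partner in replicate 2. In Arl3 no peak other than that at the promoter was listed within the gene.

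The pathway was then read through 31 other genes, listed by role. Of these, 7 had a promoter peak in the combined list, against 5.26% of all genes. A further 3 had one in both replicates alone, against 3.86% of all genes. Another 1 had a peak in replicate 1 alone and 20 had one in no list, classes for which no exact share over all genes was worked out. Of 21938 genes, 3066 had a promoter peak in replicate 1 and 2474 in replicate 2. Most genes of the mouse thus also had one in no list, so the 20 do not mark the pathway as poor in peaks. The list was drawn up with earlier results of these data known, and its counts are a description.

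Among regulators and effectors of ARL3, Cfap36, also known as BARTL1, which binds ARL3-GTP, was in the combined list, with rank 416, a −log10 p of 165, a fold enrichment of 13.0 and the summit 92 bp downstream of its TSS. Arl2bp, which encodes an effector of ARL2 and ARL3, scored 26.5 and 19.2 in the replicates and was not in the combined list, close to Rabl2 in both. Rp2, which encodes the GTPase-activating protein of ARL3, had a weak peak of 6.46 in replicate 1 alone. Arl2 had none.

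Among the cargo of the carriers, 1 of 9 was in the combined list, against 5.26% of all genes, and a single gene does not describe the class. It was the prenylated GTPase Rab28 (rank 1040, −log10 p 99.8, fold enrichment 13.9, summit at −310 bp from the TSS). Rpgr, whose constitutive isoform is prenylated, scored 13.0 and 15.1 in the replicates, the higher score being that of replicate 2, in contrast to the 4 bound genes. The other 7, Cys1, Gnat1, Gnat2, Pde6a, Pde6b, Pde6c and Grk1, had no promoter peak in any list. Of these, Gnat1, Gnat2, Pde6a, Pde6b, Pde6c and Grk1 are genes of photoreceptor signalling.

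Of 12 other ciliary small GTPases, 4 were in the combined list, against 5.26% of all genes. Arl6, the GTPase that recruits the BBSome, ranked 101, with a −log10 p of 254, a fold enrichment of 18.9 and scores of 221 and 123 in the replicates. Rsg1 ranked 246 (−log10 p 204, fold 15.6) and scored 163 and 80.5. The IFT-B GTPases Ift22 and Ift27 ranked 297 (187, 25.3) and 1213 (89.2, 12.9), the latter the last of the 7 by rank. All 4 scored higher than Rabl2 in both replicates. The other 8 of the 12, Rab8a, Rab8b, Rab10, Rab11a, Rab23, Rabl3, Arf4 and Arl13a, had no promoter peak.

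Cep19, which recruits RABL2 to the ciliary base, ranked 309 in the combined list (−log10 p 183, fold 11.9) and scored 136 and 93.2 in the replicates, against 31.0 and 17.8 at Rabl2. Its peak was shared with the promoter of Pigx. Fgfr1op, whose product anchors CEP19, had no peak. Among 4 phosphoinositide genes, Tulp3, which carries membrane proteins into the cilium, scored 10.2 and 6.68, and Inpp5b, Ocrl and Pip5k1c, like Inpp5e, had none.

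**Figure D4:**
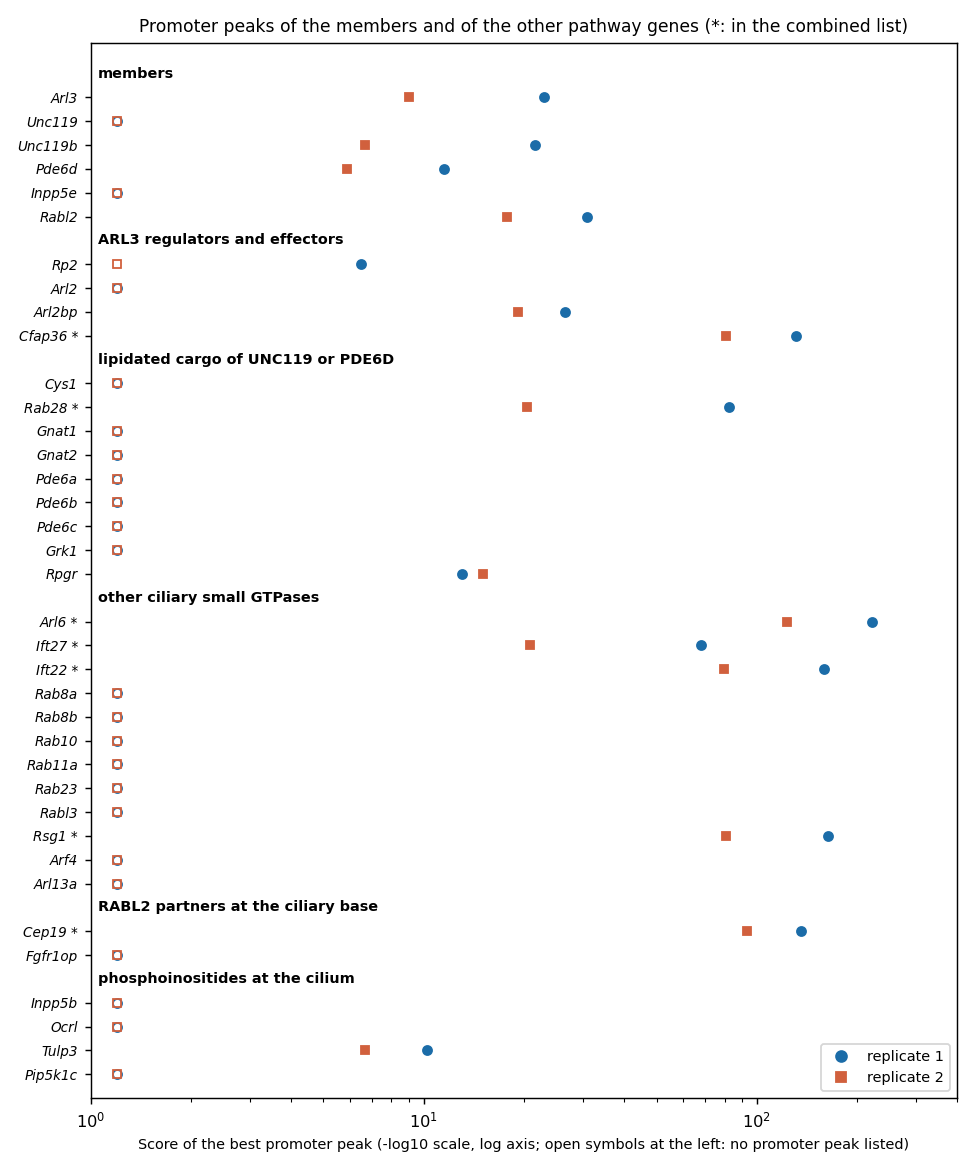
Score of the best promoter peak (x axis, −log10 scale, log axis) in replicate 1 (circles) and replicate 2 (squares) for the 6 genes and the 31 other pathway genes, grouped by role on the y axis. Open symbols at the left edge mark genes with no listed promoter peak, and an asterisk marks the combined list. The genes with an asterisk all stand to the right of Rabl2 in both replicates.

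The X-box was searched as the 14-base word GTTGCCATGGCAAC, which reads the same on both strands. It was the most frequent 14-base word in 200 bp around the summits of 2724 combined peaks away from the 6 genes, present in 163 of them (5.98%) and in 0 of 5448 flanks. A window was counted as holding an X-box when it contained the word with at most 3 mismatches. At the 4 bound genes, in 200 bp around the centre of the replicate overlap, 0 held one. The fewest mismatches were 5 at Rabl2 and Arl3 and 6 at Unc119b and Pde6d. Among 758 other promoter peaks found in both replicates and not in the combined list, 37.9% held an X-box, with a median of 4 mismatches. The share was 44.8% in promoter peaks of the combined list and 2.5% in 200 bp around the main TSS of all genes. In 1516 flanks of the replicated promoter peaks outside the combined list it was 0.923%. The median in these flanks and in the TSS windows was 6. A peak without a match was therefore the more common kind also among other replicated promoter peaks.

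**Figure D5:**
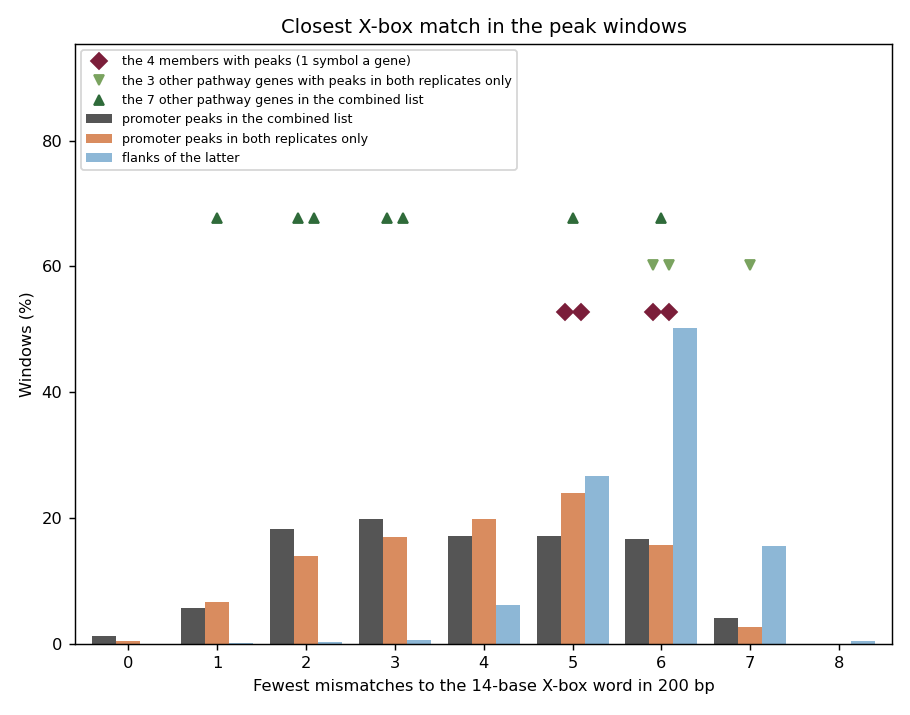
Fewest mismatches to the 14-base X-box word in 200 bp (x axis) and the share of windows in percent (y axis, bars) for promoter peaks in the combined list, for those in both replicates only, and for flanks of the latter. Symbols mark single genes at a height with no meaning. The 4 bound genes stand at 5 and 6 mismatches, and 5 of the 7 pathway genes of the combined list at 3 or fewer.

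The same search, around the centre of the replicate overlap, found an X-box at 5 of the 7 pathway genes in the combined list. The share was 44.8% over promoter peaks of that list. Of the 3 pathway genes found in the replicates alone, 0 held one, against 37.9% of other such peaks. Around the summit, which the combined list gives for its own peaks, 6 of the 7 held one. No share around the summits of other promoter peaks is set beside this count. The closest match is printed with 8 bases to each side, on the strand of the gene. It was taken around the summit at these 7 genes and around the overlap centre at the 4 bound genes. The word itself was drawn from combined peaks that include those of the 7 genes, so the print is no test of a difference. Capitals mark the 14 bases aligned to the word.

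Arl6: aagctcccGTTGCCAAGGGAACgccgcgcg
Rsg1: ccgcctgcGTCGCCATGGCAACatttctgc
Ift22: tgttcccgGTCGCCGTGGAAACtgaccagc
Cep19: agccttctGTTGCCTTGGGAACgatcctcg
Cfap36: ctgcgtacGTTGTCATAGCGACcattttac
Rab28: ggctccagGCTTCCATGGCAACaaaacctc
Ift27: ggtctaagGCTGGACTTGGAACgggttctg
Rabl2: cagaccagTATGCCAGAGCATCcgctctgt
Arl3: tgagtgtgGGGGCCCTGGCCCCtccagagc
Unc119b: cgcccccgCTCTCCATAGTTACggcgcccc
Pde6d: tcgccaagGCTGGCTTGTCATTggtttcaa

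In GRCm38 these are chr16:59639152-59639181 (minus strand), chr4:141213924-141213953 (plus), chr5:136908109-136908138 (plus), chr16:32099803-32099832 (plus), chr11:29247276-29247305 (minus), chr5:41708457-41708486 (minus), chr15:78173986-78174015 (minus), chr15:89592013-89592042 (minus), chr19:46573009-46573038 (minus), chr5:115134941-115134970 (minus) and chr1:86582551-86582580 (minus), in the order printed. Numbering the word from 1 at its 5′ end, and giving its base first, Rsg1 departed from it by T3C alone, Arl6 by T8A and C11G, Cep19 by A7T and C11G, and Rab28 by T2C and G4T. Ift22 and Cfap36 had 3 departures and Ift27 had 6, as many as Unc119b and Pde6d. The closest match of Rabl2 lay upstream of the gene, that of Arl3 inside the gene outside its exons, and those of Unc119b and Pde6d in the 5′ untranslated region.

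Over the whole length of the peaks, Rabl2 came to 4 mismatches, 123 bp downstream of its TSS, and the others to 5 or 6. Inpp5e, which had no peak, held a match with 3 mismatches 487 bp downstream of its 5′-most protein-coding TSS, in the 5′ untranslated region. Unc119 held none closer than 5 mismatches. These letters say nothing of whether RFX2 can bind there.

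A shorter search used the 7-base arm GTTGCCA or its reverse complement TGGCAAC. An exact copy was present at 0 of the 4 bound genes, against 25.1% of the other replicated promoter peaks outside the combined list and 2.04% of their flanks. With at most 1 mismatch, 3 of the 4 had a copy, all but Unc119b. Pde6d had 4 copies, Rabl2 had 2 and Arl3 had 1. The share with such a copy was 80.5% in the other replicated promoter peaks outside the combined list, 37.8% in their flanks and 40.3% in all TSS windows. It is thus a common match that separates windows only weakly.

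The 4 bound promoters shared no single base composition. In 200 bp around the overlap centre the G+C content was 75.5% at Unc119b, 70% at Arl3, 66.5% at Rabl2 and 56.5% at Pde6d. The median of the other replicated promoter peaks outside the combined list was 56.0%, with quartiles of 49.5 and 63.0%. Unc119b, Arl3 and Rabl2 lay above the upper quartile, and Pde6d was near the median. In 200 bp around the main TSS of all genes the median was 59.0%, with quartiles of 49.5 and 68.0%. Against these windows only Unc119b and Arl3 lay above the upper quartile. CpG dinucleotides numbered 18 at Unc119b, 13 at Arl3, 16 at Rabl2 and 12 at Pde6d. The median was 8 in the other replicated promoter peaks outside the combined list and 10 in the TSS windows. Whether composition has a part in the peaks without an X-box match was not tested.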

How the data were processed

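Sample titles gave the groups and replicate numbers. The authors' methods state that they mapped reads to GRCm38 (per the labels' processing notes, with CASAVA 1.8.2 and Bowtie 0.12.7) and called peaks against input with MACS2 2.0.10.20130520. Reads with several locations were discarded, and reads mapping to the human genome were removed from the second run of replicate 2 alone, which can lower conserved sites there.

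The deposited replicate lists give a score on a −log10 scale, and the sources used here do not say which of p-value and q-value it is the −log10 of. The deposited combined list gives a score, the fold enrichment as a ratio, −log10 p, −log10 q (a q-value) and the summit position. Its peak names carry no replicate number, so it was read as a call on pooled reads. The authors' methods also describe an IDR filter between the replicates, and whether it made this list is not stated. The −log10 q was not used. Unused per-sample columns numbered 0.

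TSSs of protein-coding genes came from GENCODE M21 (GRCm38), and sequence from RefSeq's GRCm38 assembly. Non-coding genes were left out. Peaks met promoters by at least 1 bp, in Python 3.11.15 with pandas 2.3.3 and pysam 0.24.0. Counts over all genes were checked with bedtools 2.31.1, and the code was tested on simulated data. The named genes were the 6 members, the pathway list, genes sharing a peak with a member, genes with the TSS nearest to the nearest peaks, and 1 gene of most similar ranks per bound member. As no combined peak met a member, X-box windows of 200 bp were centred on the replicate overlap in place of the summit, flanks lay 1000 bp to each side, and similarity used 2 lists in place of 3. A gene of the group and a gene of the pathway list are not reported here. Members and lists were chosen with earlier results of these data known. No test was made, and the alternatives are given in the closing section.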

Additional observations from a re-analysis of the deposited data

How the results depend on the processing

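The counts of members with a promoter peak stayed at 4 in replicate 1, 4 in replicate 2 and 0 in the combined list with a narrower promoter (500 bp upstream to 50 bp downstream), with the 5′-most protein-coding TSS alone, with the peak centre inside the promoter, and in the top 50% of each list by score. The count of pathway genes in the combined list stayed at 7 under the same alternatives. Each alternative keeps only part of the main calls, so a count could fall but not rise. The 0 in the combined list was therefore fixed beforehand. Leaving out replicate 1 or replicate 2 gave 4 to 4 members, which repeats the counts of the single lists. No bound member held an X-box around the centre of the replicate 1 peak, in whole peaks, or by the most frequent 8-base word ATGGCAAC. With at most 2 mismatches the count was also 0, which the 0 with at most 3 mismatches had fixed. The search for the 7-base arm of the word, chosen after the data were seen, gave 0 members exactly and 3 with at most 1 mismatch. No paired analysis was possible because the results come from no test. The alternatives for combined peaks at the members (whole peak, peak centre in place of summit) could not be run, since no combined peak met a member; whole replicate peaks were searched instead. The read depth is unknown, and a promoter without a listed peak may hold binding below the calling threshold.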
